A study of Mus musculus with 17 samples.

Results

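Transcripts of the complement system were examined in the left ventricular apex of mice after transverse aortic constriction (TAC), an operation that narrows the aorta and puts the left ventricle under pressure overload. The genes were C1s1, C2, C4b, C3, Cfp, C7, Serping1, Cd55 and C3ar1. These 9 were taken by gene symbol from the 21798 symbols measured. All animals were male C57Bl6/J mice, 7 to 8 weeks old at surgery, that underwent TAC or Sham surgery. From 1 week after surgery they received 6 oral gavages of 50 µg/kg 29P, the prodrug of an RGD mimetic that binds αvβ3-integrin, or of saline at the same volume (Veh), and hearts were taken 3 weeks after surgery. Each library was polyA RNA from 1 animal, with 5 animals in Sham Veh, 6 in TAC 29P and 3 in each of Sham 29P and TAC Veh. According to the study's methods, libraries with few reads and a TAC Veh library that clustered with Sham animals had been left out, so the TAC Veh group had been chosen in part by its expression profile.

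Complement is a cascade of plasma proteins that is opened by antibody-bound C1q (classical pathway), by sugar-binding lectins (lectin pathway) or by spontaneous turnover of C3 (alternative pathway). All routes cleave C3, release small fragments that attract and activate myeloid cells, and end in a membrane pore built from C5b to C9. The liver makes most of the circulating protein, while fibroblasts, macrophages and endothelial cells make components locally. In whole ventricle a lower number of cells of a type and less RNA per cell cannot be told apart.

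Depth, estimated from the step between low values, was 14.2 to 23.8 M reads per library, and was lowest in the Sham 29P animal S14. Values are CPM, read counts scaled to the same total in every library. The distribution over all genes was shifted after TAC. Mitochondrial-encoded genes held 29.1 to 38.8% of the total in Sham Veh and 23.6 to 27.9% in TAC Veh. The shares were 32.9 to 40.0% in Sham 29P and 25.1 to 29.4% in TAC 29P. The median log2 fold change of the 16218 genes tested was 0.35 in TAC Veh against Sham Veh and 0.37 in TAC 29P against Sham 29P. Totals without mitochondrial-encoded genes brought these medians to 0.19 and 0.20. TMM factors, which rescale each library to the bulk of its genes, brought them to 0.01 and 0.03. Changes of the 9 genes after TAC are therefore given with the TMM value beside them, and those of other genes with their TMM calls. Of the 17 libraries, 3 held atrial transcripts, namely S19 and S20 of Sham Veh and S18 of TAC 29P. The summed level of Myl7, Myl4, Sln and Bmp10 was 1529 to 2543 CPM in these libraries and 0.352 to 5.75 CPM in the other 14. The 3 libraries were also those of the last run of animal numbers, so atrial tissue and this run cannot be told apart. Results that rest on these libraries are given with and without them. Of the 6 TAC 29P libraries 5 were of the first run, whereas TAC Veh and Sham 29P each had 1 library in each of the first 3 runs. The runs were thus unevenly spread over the groups, which limits comparisons with TAC 29P and the fits with run as a covariate.

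The complement genes did not all follow these 3 libraries. For C4b, C3, C7 and Serping1, every library with atrial transcripts lay above every other library of its group, in Sham Veh and in TAC 29P. In TAC 29P this concerned S18 alone. C1s1, C2 and Cfp met this rule in TAC 29P and not in Sham Veh. How many of all genes met it was not counted, so the pattern cannot be called particular to these genes. C7 showed the widest gap in Sham Veh, with 17.1 and 26.2 CPM in S19 and S20 against 4.92 to 9.72 CPM in the other 3 animals. C3 in TAC 29P was 145 CPM in S18 and 40.5 to 77.8 CPM in the other 5. In contrast, Cd55 and C3ar1 lay within the range of the other libraries or, for C3ar1 in TAC 29P, just below it (11.6 CPM in S18 against 12.3 to 14.3 CPM). Summed adipocyte markers (Adipoq, Plin1, Retn, Car3 and Cidec, with Lep unlisted) were 5.45 to 23.1 CPM in the 3 libraries and 0.318 to 7.33 CPM in the others. The part of atrial or fat tissue in these levels was not tested.

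The sequences upstream of 4 of these genes are shown as examples of 2 of the patterns just described. C3 and C7 were high in the libraries with atrial transcripts in both groups, and Cd55 and C3ar1 were not. Each run is the 250 bases before the RefSeq start on the minus strand of GRCm38.p6, printed 5′ to 3′, and capitals mark matches on either strand to the GAS, CCAAT box, TATA box, GC box and AP-1 patterns spelled out after the runs.
C3, chr17:57228137-57228386: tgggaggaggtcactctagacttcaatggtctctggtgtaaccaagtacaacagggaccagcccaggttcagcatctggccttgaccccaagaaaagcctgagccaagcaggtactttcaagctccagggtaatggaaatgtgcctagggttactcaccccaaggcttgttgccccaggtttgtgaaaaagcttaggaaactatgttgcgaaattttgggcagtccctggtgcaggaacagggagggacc
C7, chr15:5063774-5064023: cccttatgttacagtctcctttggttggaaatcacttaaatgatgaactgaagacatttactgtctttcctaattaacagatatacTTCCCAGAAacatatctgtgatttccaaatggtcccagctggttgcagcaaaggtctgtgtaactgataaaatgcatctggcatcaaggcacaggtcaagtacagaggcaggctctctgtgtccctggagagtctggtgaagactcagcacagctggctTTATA
Cd55, chr1:130462745-130462994: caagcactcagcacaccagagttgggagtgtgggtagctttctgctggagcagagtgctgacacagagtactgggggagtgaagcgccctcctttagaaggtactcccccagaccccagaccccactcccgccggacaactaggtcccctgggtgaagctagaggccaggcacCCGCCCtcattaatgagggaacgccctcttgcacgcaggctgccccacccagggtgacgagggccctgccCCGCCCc
C3ar1, chr6:122856158-122856407: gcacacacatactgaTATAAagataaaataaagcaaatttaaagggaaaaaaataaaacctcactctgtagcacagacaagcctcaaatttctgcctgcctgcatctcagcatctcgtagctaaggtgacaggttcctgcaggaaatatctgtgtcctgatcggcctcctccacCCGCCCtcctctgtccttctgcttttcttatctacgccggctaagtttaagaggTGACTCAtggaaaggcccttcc
Matching entries were found for 6 of the 9 genes (C1s1, C3, Cfp, C7, Cd55 and C3ar1).

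In C7 the GAS letters (TTCNNNGAA), the pattern bound by STAT factors, begin 164 bases before the start, and 7.18% of the 27025 mouse promoter windows of this table hold such a match. GC boxes (GGGCGG) lie 77 and 7 bases before the start of Cd55 and 76 bases before that of C3ar1, against 32.9% of all windows with one. C3ar1 also holds AP-1 letters (TGANTCA) 22 bases before its start, a pattern found in 6.87% of windows. The C3 window held none of these 5 patterns. The CCAAT box was found in 34.5% and the TATA box (TATAA) in 23.5% of all windows. An E-box (CANNTG, not capitalised) was found in 66.0%. An ISRE (GAAANNGAAA) was found in 3.04% of windows and in none of the 6 searched here. These are matches of letters only.

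**Figure D1:**
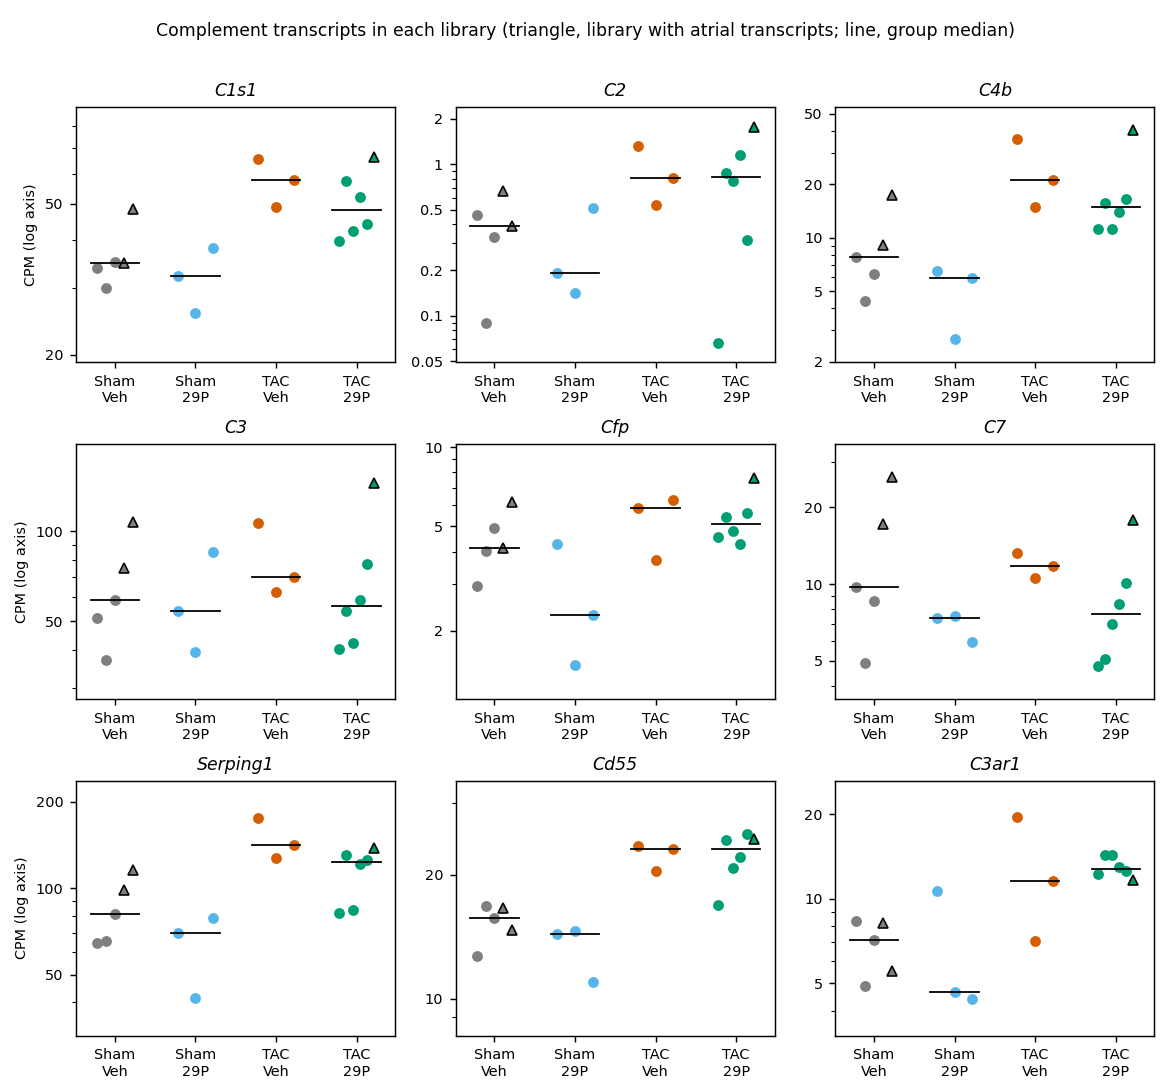
Level of each complement gene in every library, in CPM on a log axis, by group. Circles are libraries, triangles are the 3 libraries with atrial transcripts and lines are group medians. C1s1, Serping1 and Cd55 lay higher in all 3 TAC Veh libraries than in all 5 Sham Veh libraries, while C3 and C7 overlapped. How many of all genes separated in this way was not counted.

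Per kilobase of exon, Serping1 had the highest level in every group and C2 the lowest. Serping1 was at 36.5 ± 9.46 CPM per kb (SD, n = 5) in Sham Veh and 63.6 ± 10.7 CPM per kb (SD, n = 3) in TAC Veh. C3 and C1s1 came next, at 12.8 ± 5.24 and 11.6 ± 2.22 CPM per kb in Sham Veh (SD, n = 5), with overlapping ranges. Of the next 5 (C7, Cd55, Cfp, C3ar1 and C4b), the range of Cd55 lay above that of C3ar1 in Sham Veh and all other pairs overlapped, with means from 1.57 CPM per kb (C4b) to 4.98 CPM per kb (C7). C4b was at 4.22 ± 1.89 CPM per kb (SD, n = 3) in TAC Veh. C2 was at 0.1002 ± 0.0543 CPM per kb (SD, n = 5) in Sham Veh and 0.229 ± 0.102 CPM per kb (SD, n = 3) in TAC Veh.

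Of the classical pathway genes, C1s1 encodes the C1s serine protease that cleaves C4 and C2. The gene is on chromosome 6 from 124530345 to 124542359 (mm10, minus strand, 12 exon blocks), where Gm16567 is annotated on the opposite strand. Its level was 33.9, 29.9, 35.2, 34.8 and 48.3 CPM in Sham Veh and 65.6, 48.9 and 57.6 CPM in TAC Veh. It was 32.3, 25.7 and 38.1 CPM in Sham 29P and ran from 39.8 over a median of 48.0 to 66.5 CPM in TAC 29P. Each TAC group lay wholly above its own Sham group. For this gene and those below, how many of all genes separated in this way was not counted. On the log2 scale C1s1 rose after TAC by 0.66 in Veh animals (SE 0.18, limma adjusted p = 0.0179, permutation exact p = 0.0179, which is the minimum for 56 splits) and by 0.65 in 29P animals (SE 0.18, limma adjusted p = 0.0150, permutation exact p = 0.0238 over 84 splits). With TMM factors these were 0.33 and 0.31, with limma adjusted p = 0.175 and 0.178.

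C4b encodes C4, whose larger fragment joins C2 in the C3 convertase of the classical and lectin pathways. Its locus is on chromosome 17 from 34728380 to 34743882 (minus strand, 40 exon blocks). Its level was 7.76, 4.40, 6.22, 9.06 and 17.4 CPM in Sham Veh and 35.9, 14.9 and 21.3 CPM in TAC Veh. In the 29P groups it was 6.52, 2.67 and 5.92 CPM after Sham surgery and 11.2 to 40.2 CPM (median 14.8) after TAC. The Veh groups overlapped through the atrial library S20 alone, and the 29P groups did not overlap. C4b rose by 1.49 in Veh animals (SE 0.45, limma adjusted p = 0.0259, permutation exact p = 0.0536) and by 1.79 in 29P animals (SE 0.43, limma adjusted p = 0.00885, permutation exact p = 0.0119, the lowest possible of 84 splits), which was the widest change of the 9 genes in both comparisons. With TMM factors the log2 fold changes were 1.15 (limma adjusted p = 0.0817) and 1.45 (limma adjusted p = 0.0277). In the 14 libraries without atrial transcripts they were 1.91 and 1.53 (limma adjusted p = 0.00768 and 0.00753). C4b has a near-identical copy, C4a, listed at 0.0447 to 0.433 CPM, and its reads came out whole in only 2 of 17 libraries (to within 0.05 reads), so how reads were shared between the copies is uncertain.

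C2 encodes the serine protease of the same convertase. The locus spans 34862604 to 34898265 on chromosome 17 (minus strand), overlapping Gm20547 on the same strand and Zbtb12 on the opposite strand. It rested on an estimated 1.48 to 27.9 reads a library and reached the filter minimum of 0.5 CPM in 2 of 8 Sham and 7 of 9 TAC libraries. Its level was 0.0887 to 0.669 CPM in Sham Veh, 0.141 to 0.515 CPM in Sham 29P, 0.538 to 1.32 CPM in TAC Veh and 0.0662 to 1.76 CPM in TAC 29P. The TAC 29P range spanned every other group. The log2 fold changes after TAC were 1.36 and 1.20 in Veh and 29P animals, with SEs of 0.89 and 0.86 (limma adjusted p = 0.253 and 0.282). With TMM factors they were 1.03 and 0.86.

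C3, the protein on which all pathways converge, lies on chromosome 17 from 57203970 to 57228136 (minus strand, 42 exon blocks). Its level was 51.4, 37.1, 58.9, 75.02 and 108 CPM in Sham Veh, the last 2 from the libraries with atrial transcripts, and 106, 62.5 and 70.3 CPM in TAC Veh. It was 54.1, 39.5 and 85.2 CPM in Sham 29P and 40.5 to 145 CPM (median 56.3) in TAC 29P. The groups overlapped in both comparisons. The log2 fold change after TAC was 0.33 in Veh animals (95% interval −0.48 to 1.13, limma adjusted p = 0.527) and 0.14 in 29P animals (95% interval −0.63 to 0.92, limma adjusted p = 0.784), and TMM factors turned the sign of both (−0.01 and −0.19). Without the libraries with atrial transcripts the 3 TAC Veh animals lay above the remaining 3 Sham Veh animals, with a difference of 0.69 (SE 0.30, limma adjusted p = 0.117), while the value in 29P animals was −0.10.

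Cfp encodes properdin, which stabilises the alternative pathway convertase and is made mainly by myeloid cells. Cfp is on chromosome X from 20925454 to 20931555 (minus strand, 9 exon blocks). Its level was 2.94, 4.03, 4.90, 4.11 and 6.19 CPM in Sham Veh and 5.84, 3.72 and 6.29 CPM in TAC Veh, with overlap. It was 4.29, 1.48 and 2.29 CPM in Sham 29P and 4.27 to 7.61 CPM (median 5.11) in TAC 29P, so that 5 of 6 TAC 29P animals lay above all 3 Sham 29P animals. Cfp rose after TAC in 29P animals by 1.11 (SE 0.30, limma adjusted p = 0.0135, permutation exact p = 0.0238), and the value in Veh animals was 0.26 (SE 0.31, limma adjusted p = 0.534). With TMM factors these were 0.78 (limma adjusted p = 0.0704) and −0.07. The test of the difference between both surgery effects gave 0.86 (SE 0.43, limma adjusted p = 0.998), and 0.60 in the 14 libraries without atrial transcripts (limma adjusted p = 0.958), so the effects were not shown to differ.

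C7 is part of the terminal pore complex. C7 is annotated on chromosome 15 from 4988762 to 5063740 (minus strand, 18 exon blocks). Its level was 9.72, 4.92, 8.60, 17.1 and 26.2 CPM in Sham Veh and 13.2, 10.6 and 11.8 CPM in TAC Veh, and it was 7.38, 7.47 and 5.92 CPM in Sham 29P and 4.78 to 17.8 CPM (median 7.66) in TAC 29P. The TAC Veh animals lay between the 3 lower and the 2 higher Sham Veh animals. The log2 fold change was 0.06 in Veh animals (95% interval −0.86 to 0.99, limma adjusted p = 0.926) and 0.21 in 29P animals (limma adjusted p = 0.727), with TMM values of −0.27 and −0.13. In the 14 libraries without atrial transcripts they were 0.67 (limma adjusted p = 0.119) and −0.02.

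Among the regulators, Serping1 encodes the C1 inhibitor, which inactivates C1r and C1s. Serping1 is on chromosome 2 from 84765387 to 84775444 (minus strand, 8 exon blocks). Its level was 64.3, 65.4, 81.1, 98.3 and 115 CPM in Sham Veh and 175, 127 and 141 CPM in TAC Veh, and 69.5, 41.4 and 78.9 CPM in Sham 29P and 82.1 to 138 CPM (median 123) in TAC 29P. Each TAC group lay above its Sham group. Serping1 rose by 0.82 in Veh animals (SE 0.24, limma adjusted p = 0.0214, permutation exact p = 0.0357) and by 0.87 in 29P animals (SE 0.23, limma adjusted p = 0.0131, permutation exact p = 0.0119). With TMM factors the values were 0.49 and 0.53 (limma adjusted p = 0.142 and 0.0959). Over those 14 libraries they were 1.07 and 0.80, both past the threshold (limma adjusted p = 0.0150 and 0.0163).

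Cd55 encodes decay accelerating factor, a membrane protein that takes convertases apart on host cells. Cd55 is on chromosome 1 from 130439027 to 130462744 (minus strand, 10 exon blocks), and the antisense gene Gm16083 overlaps its start. Its level was 12.7, 16.8, 15.7, 16.6 and 14.7 CPM in Sham Veh and 23.5, 20.4 and 23.1 CPM in TAC Veh, and 14.3, 14.6 and 10.97 CPM in Sham 29P and 16.9 to 25.1 CPM (median 23.2) in TAC 29P. Neither pair of groups overlapped. Cd55 rose by 0.55 in Veh animals (SE 0.15, limma adjusted p = 0.0152, permutation exact p = 0.0179) and by 0.74 in 29P animals (SE 0.14, limma adjusted p = 0.00306, permutation exact p = 0.0119). With TMM factors the values were 0.22 (limma adjusted p = 0.401) and 0.40 (limma adjusted p = 0.0938).

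C3ar1 encodes the receptor for the C3a fragment, found on macrophages and other myeloid cells. The C3ar1 locus is on chromosome 6 from 122847138 to 122856161 (minus strand, 2 exon blocks). Its level was 8.37, 4.88, 7.13, 8.18 and 5.54 CPM in Sham Veh and 19.6, 7.09 and 11.6 CPM in TAC Veh. It was 10.7, 4.65 and 4.40 CPM in Sham 29P and 11.6 to 14.3 CPM (median 12.8) in TAC 29P. TAC 29P animals lay close together and above all Sham 29P animals, whereas TAC Veh animals were spread and S12 lay within the Sham Veh range. C3ar1 rose in 29P animals by 1.11 (SE 0.29, limma adjusted p = 0.0128, permutation exact p = 0.0119). The value in Veh animals was 0.81 (SE 0.30, limma adjusted p = 0.0554, permutation exact p = 0.107). The TMM values were 0.77 (limma adjusted p = 0.0628) and 0.48 (limma adjusted p = 0.261). With a covariate for the animal-number run the call moved from 29P animals (0.66, limma adjusted p = 0.155) to Veh animals (1.07, limma adjusted p = 0.0257). The difference between both surgery effects was 0.29 (SE 0.42, limma adjusted p = 0.998), and −0.41 with that covariate.

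**Figure D2:**
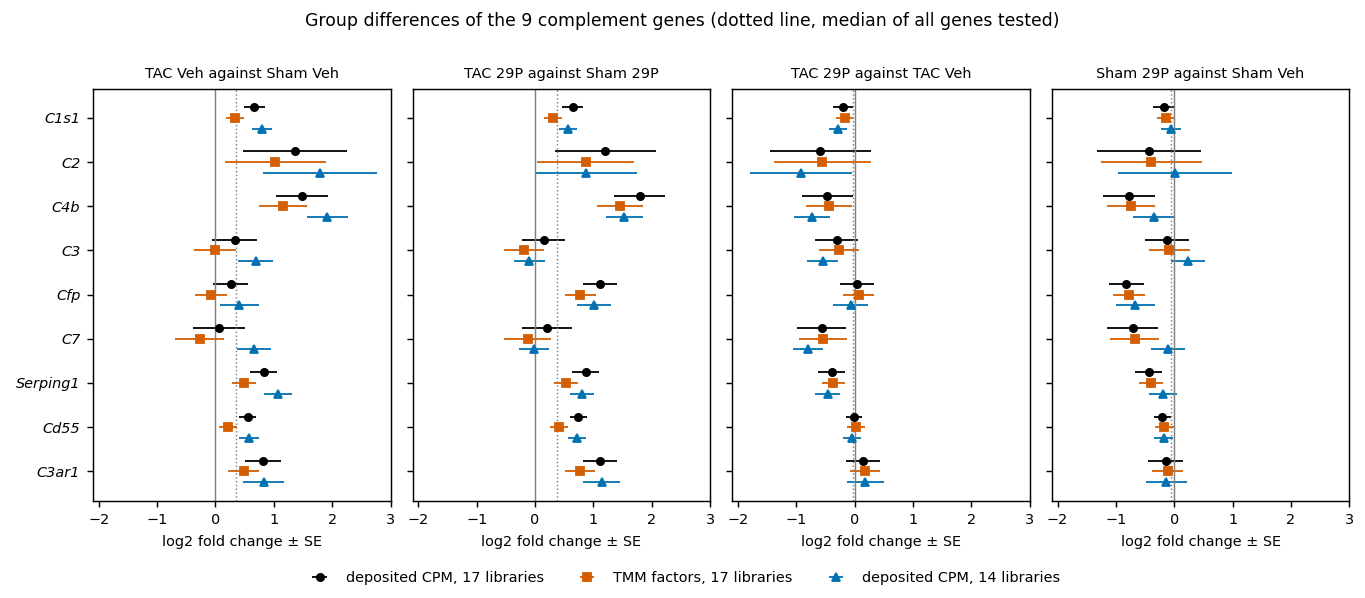
Log2 fold change of each complement gene, with its SE, in the 4 comparisons. Black circles are the deposited CPM in 17 libraries, orange squares the same with TMM factors and blue triangles the deposited CPM in the 14 libraries without atrial transcripts; C4b lay furthest to the right of the dotted all-gene median of the called genes after TAC, and the values for 29P against Veh lay near or below 0.

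Counted over the 9 genes, 4 were higher in TAC Veh than in Sham Veh (C1s1, C4b, Serping1 and Cd55) and none was lower at a limma adjusted p of 0.05 or less. Over all 16218 genes tested, 22.5% were called higher and 1.91% lower. In TAC 29P against Sham 29P, 6 of the 9 were higher (the same 4 genes with Cfp and C3ar1) and none lower, against 31.4% of all genes higher and 1.12% lower. The median log2 fold change of the 9 genes was 0.66 in Veh animals, beside 0.35 over all genes, and 0.87 in 29P animals, beside 0.37. Under TMM factors the split of calls over all genes after TAC in Veh animals went from 3648 higher and 310 lower to 634 higher and 915 lower. No complement gene was then called in Veh animals, against 3.91% of all genes called higher, and C4b alone was called in 29P animals, against 6.02%. Without the libraries with atrial transcripts the same 4 and 6 genes were called, against 13.4% and 30.2% of all genes called higher. With the covariate for the animal-number run, C3ar1 joined the 4 genes in Veh animals (19.2% of all genes called higher). In 29P animals C4b and Cd55 alone were then called (4.19% of all genes), while C1s1 was at 0.58, Serping1 at 0.74 and Cfp at 0.89 (limma adjusted p = 0.0685, 0.0701 and 0.102).

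These counts also rested on single libraries. Without the TAC Veh animal S2, which had the highest level of its group for 8 of the 9 genes, none of the 9 was called after TAC in Veh animals, and the share of all genes called higher was 2.60%. Without S16 none was called either (limma adjusted p from 0.0509 to 0.0600 for the 4 genes, 12.8% of all genes higher), and without the Sham Veh animal S6 only C1s1 and Cd55 were called (13.8% of all genes higher). S12 had the lowest level of its group for all 9 genes, and summed macrophage and fibroblast markers were lowest there too, at 409 and 2062 CPM against 633 and 3082 CPM in S2. In 29P animals, leaving out S14 of Sham 29P, the library of least depth and the lowest of its group for 6 of the 9 genes, left Cd55 alone called (6.41% of all genes higher), and leaving out S15 lost C3ar1 (limma adjusted p = 0.0614, 20.9% of all genes higher).

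Treatment with 29P was compared within each kind of surgery. In TAC 29P against TAC Veh none of the 9 genes was called (every limma adjusted p rounded to 1), as was the case for 0% of all genes. At an unadjusted p of 0.05 none of the 9 was called either, against 1.98% of all genes. Of the 9 log2 fold changes 7 were below 0, with a median of −0.31 beside −0.02 over all genes. The values furthest from 0 were C2 at −0.59 (SE 0.86), C7 at −0.57 (SE 0.43) and C4b at −0.47 (SE 0.43), and Serping1 was at −0.40 (95% interval −0.88 to 0.09, permutation exact p = 0.119).

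Leaving out the libraries with atrial transcripts, a step added after seeing the data, took S18 out of TAC 29P. S18 was the highest of its group for 7 of the 9 genes, C7, C4b and Serping1 among them. The differences of these 3 genes therefore had to widen, and the values below are no separate test of 29P. C2, C3 and C1s1 widened as well, to −0.92, −0.55 and −0.29. C7 was at 17.8 CPM in S18 and ran from 4.78 to 10.1 CPM in the other 5 TAC 29P animals. The TAC Veh animals were at 10.6, 11.8 and 13.2 CPM. Without S18 the difference was −0.80 (SE 0.26, permutation exact p = 0.0536 over 56 splits). How many of all genes separated after this removal was not counted. C4b was at −0.73 (permutation exact p = 0.0536) and Serping1 at −0.46 (permutation exact p = 0.107). In the limma fit these 3 of the 9 genes were lower at an unadjusted threshold of 0.05, against 1.80% of all genes. No gene of the 9 passed adjustment. When the animal-number run entered the model, C7, C4b and Serping1 were at −0.86, −0.93 and −0.52, and none passed adjustment. Cd55 and Cfp stayed near 0 in these fits (−0.19 to 0.04).

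In Sham 29P against Sham Veh none of the 9 genes was called, beside 0.00617% of all genes. At an unadjusted p of 0.05, Cfp alone was lower (−0.82, SE 0.31, limma adjusted p = 0.651, permutation exact p = 0.125), against 5.89% of all genes called lower. All 9 log2 fold changes were below 0, as were 59.1% of all genes, and their median was −0.43 beside −0.06. Without the libraries with atrial transcripts 7 of the 9 were below 0, with a median of −0.14, and C7 went from −0.72 to −0.11. On the deposited CPM the surgery effect differed between 29P and Veh animals for none of the 9 genes, also at an unadjusted p of 0.05, which 2.84% of all genes reached. With TMM factors Cfp alone reached that unadjusted threshold (0.85, 95% interval 0.04 to 1.66, limma adjusted p = 0.988), as did 3.64% of all genes. Comparisons that share a group are not independent of each other.

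The wider pathway was covered by 53 other complement genes, of which 40 were listed and 29 tested. In TAC Veh against Sham Veh 11 of the 29 were higher and 1 lower, beside 22.5% of all genes higher, with a median log2 fold change of 0.49 beside 0.35. In TAC 29P against Sham 29P 12 were higher and 1 lower, beside 31.4% higher, with a median of 0.74 beside 0.37. With TMM factors the counts were 2 higher and 1 lower (3.91% of all genes higher), and 3 higher and 1 lower (6.02%). Over the 14 libraries without atrial transcripts they were 8 higher and 0 lower in Veh animals (13.4% of all genes higher), where Cd59a no longer passed (limma adjusted p = 0.0588), and 12 higher and 1 lower in 29P animals (30.2%). No gene of the list was called for 29P within TAC or within Sham surgery. The 11 genes listed but not tested, among them Hc (C5), C6, Cfi and Masp2, stayed at or below 0.755 CPM in every library.

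Of the initiators of the classical and lectin pathways, 6 of 9 tested genes were higher in each comparison, against 22.5% and 31.4% of all genes. The C1q chains C1qa, C1qb and C1qc rose after TAC in Veh animals by 0.96, 1.01 and 0.90 (limma adjusted p = 0.0169, 0.00671 and 0.0377) and in 29P animals by 1.10, 1.05 and 1.10 (limma adjusted p = 0.00701, 0.00411 and 0.0127). C1ra, which encodes the C1r protease, rose in Veh animals (0.75, limma adjusted p = 0.0399) and was at 0.61 in 29P animals (limma adjusted p = 0.0604). The collectin gene Colec12 rose by 0.93 and 0.85, and Masp1, a lectin pathway protease, by 0.49 and 0.77, while Colec11 rose in 29P animals (0.65, limma adjusted p = 0.0249) and was at 0.36 in Veh animals, where it did not pass. With TMM factors C1qb and Colec12 alone of the initiators had an adjusted p of 0.05 or less in Veh animals, and C1qa and C1qb in 29P animals. Without the libraries with atrial transcripts 4 of the 9 were called in Veh animals and 6 in 29P animals.

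In the alternative pathway Cfb, the factor B protease, rose in Veh animals by 1.46 (SE 0.47, limma adjusted p = 0.0329) and was at 0.98 in 29P animals (limma adjusted p = 0.103). With TMM factors it was at 1.13 in Veh animals and no longer passed (limma adjusted p = 0.114). Cfd (adipsin), which adipocytes secrete, was at 1.43 and 9.49 CPM in S19 and S20 and 5.66 CPM in S18 against 0.0841 to 0.143 and 0.194 to 0.528 CPM in the rest of their groups, and was not called. The terminal component tested, C8g, was not called. Of 4 fluid-phase regulators tested, Clu (0.80) and Vtn (0.75) rose in 29P animals (limma adjusted p = 0.0235 and 0.0234) and were at 0.45 and 0.30 in Veh animals, and neither passed with TMM factors (limma adjusted p = 0.180 and 0.170 in 29P animals). Cd59a, whose product blocks the terminal pore, fell by 0.37 in Veh animals (limma adjusted p = 0.02001) and by 0.33 in 29P animals (limma adjusted p = 0.0246), and by more with TMM factors (−0.71 and −0.67). Cd55 and Cd59a, both membrane regulators, thus had opposite signs after TAC.

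Of 9 receptor genes tested, 4 were higher in each comparison, against 22.5% and 31.4% of all genes, and 3 of these were the integrin chains of complement receptors 3 and 4. Itgam was at 0.85 and 1.002, Itgax at 1.49 and 1.52 and Itgb2 at 0.95 and 1.15 in Veh and 29P animals (limma adjusted p from 0.00454 to 0.0348). Cd93 rose by 0.73 and 0.83 (limma adjusted p = 0.0176 and 0.00725). With TMM factors no receptor gene was called in Veh animals and Itgb2 alone in 29P animals (0.81, limma adjusted p = 0.0187). Without the libraries with atrial transcripts Itgb2 alone was called in Veh animals (0.95, limma adjusted p = 0.0454), as Itgam, Itgax and Cd93 had limma adjusted p from 0.0768 to 0.0831, and all 4 were called in 29P animals. The C5a receptor genes C5ar1 and C5ar2 were at 0.62 and 0.04 in Veh animals and at 0.51 and 0.52 in 29P animals and did not pass (limma adjusted p from 0.206 to 0.944).

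**Figure D3:**
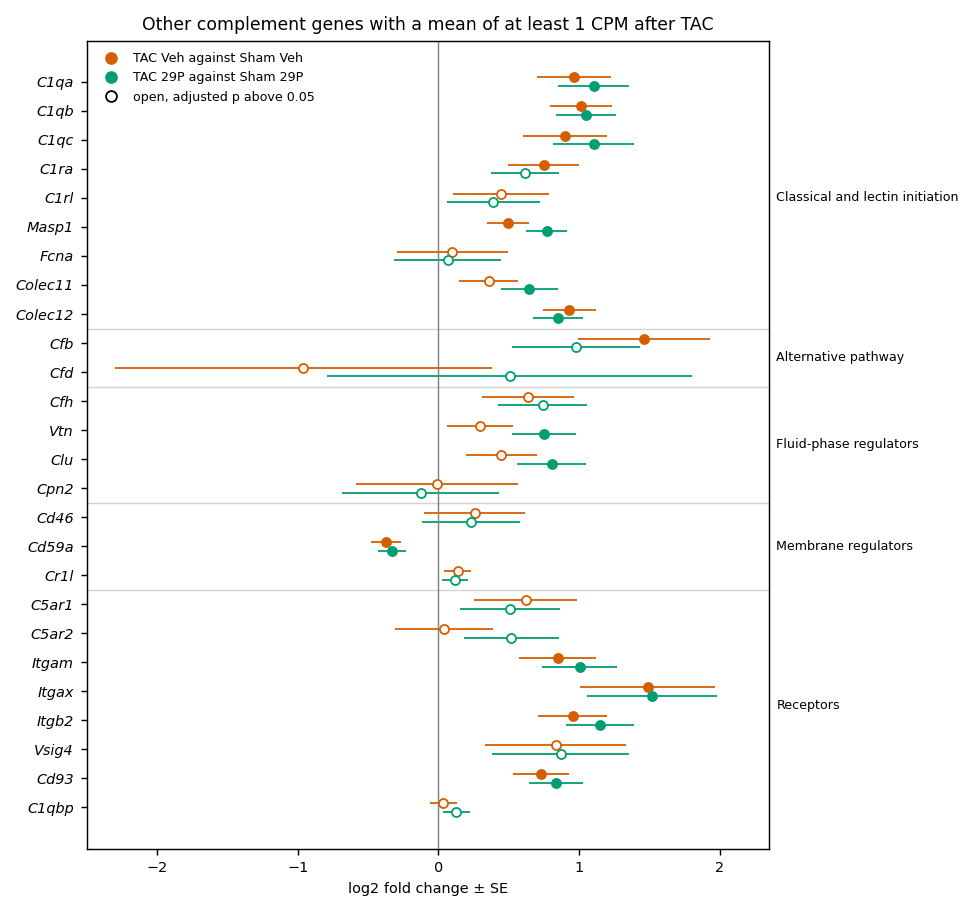
Log2 fold change after TAC, with its SE, of the other complement genes with a mean of at least 1 CPM, grouped by role. Filled symbols had a limma adjusted p of 0.05 or less and open symbols did not; the C1q chains, Itgam and Itgb2 lay near 1 in both comparisons, Itgax lay at 1.49 and 1.52, and Cd59a lay below 0.

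Marker genes of macrophages and fibroblasts, which express complement, moved with surgery as well. Of 10 macrophage markers 8 were higher after TAC in Veh and 9 in 29P animals, and of 8 fibroblast markers 5 and 7, against 22.5% and 31.4% of all genes. With TMM factors these counts were 1 and 6 for macrophage and 3 and 4 for fibroblast markers, against 3.91% and 6.02% of all genes. Of 6 endothelial markers 1 was higher in Veh and 5 in 29P animals, and 0 in both with TMM factors. Mural markers were higher for 3 of 5 in each comparison, and for 2 of 5 in each with TMM factors. B cell markers were higher for 1 of 4 in Veh and 3 of 4 in 29P animals, and for 1 and 2 with TMM factors. The summed macrophage level was 287 to 314 CPM in Sham Veh and 409 to 633 CPM in TAC Veh, and 201 to 361 CPM in Sham 29P and 408 to 527 CPM in TAC 29P. Summed fibroblast markers were 981 to 1529 CPM in Sham Veh, 2062 to 3082 CPM in TAC Veh, 828 to 1113 CPM in Sham 29P and 1411 to 3216 CPM in TAC 29P. No macrophage or fibroblast marker was at 0 in any library. Hepatocyte markers were nearly absent, since Alb was at 0 in 16 of 17 libraries and the sum of the 3 listed markers was 0.211 to 1.94 CPM. Cardiomyocyte markers summed to 28755 to 44512 CPM. The part of cell composition in the changes of the complement genes was not tested.

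Within groups the 9 genes formed unequal ties. After subtraction of each group's mean, all 36 pairs had a Pearson r above 0 over 17 libraries (median 0.56), and over the 14 libraries without atrial transcripts (median 0.40). Libraries share their total and composition, which adds to any such r. C3 and C4b had the highest r over 17 libraries (0.92, and 0.81 over 14), and C1s1 and Serping1 had the highest over 14 (0.87, and 0.86 over 17). C3ar1 and Cfp went most with the summed macrophage markers (0.84 and 0.72 over 17 libraries, 0.88 and 0.80 over 14), whereas C1s1 and Serping1 went with the fibroblast sum (0.83 and 0.80, then 0.81 and 0.72). C4b and C2 also went with the fibroblast sum over 17 libraries (0.75 and 0.72). Over 14 libraries C1s1 and Serping1 also went with the mural sum (0.75 and 0.72), as did C3 (0.81, against 0.36 over 17). C4b then went most with the endothelial sum (0.88, against 0.01 over 17). C3ar1 and Cfp also went with the endothelial sum over 14 libraries (0.78 and 0.70, against 0.55 and 0.24 over 17). C7 went with the atrial and adipocyte sums over 17 libraries (0.81 and 0.79), but not over 14 (−0.20 and −0.01). Cd55 had no r above 0.37 with another of the 9 genes.

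Over all 14054 genes with a mean of at least 1 CPM, the gene most like each of the 9 in the 17 libraries was Sdc1 for C1s1 (r = 0.92), Gm527 for C2 (r = 0.86), Slco3a1 for C4b (r = 0.92) and C4b for C3 (r = 0.92). For Cfp it was Col18a1 (r = 0.91), for C7 Smoc1 (r = 0.92), for Serping1 Rnase4 (r = 0.97), for Cd55 Kcnt2 (r = 0.85) and for C3ar1 Gas7 (r = 0.89). The next were Fam129a and Ncam1 for C1s1, Ninl and Esr1 for C2, C3 and Gm48529 for C4b, Scd1 and Cacna2d2 for C3, and Actg1 and Pla2g7 for Cfp. They were Col4a6 and Sort1 for C7, Rarres2 and Tmem119 for Serping1, Psmd6 and Rab32 for Cd55, and Gins3 and Nckap1l for C3ar1, with r from 0.82 to 0.92. Rnase4 and Kcnt2 remained the most alike to Serping1 and Cd55 over the 14 libraries (r = 0.98 and 0.88), and the most alike gene of each of the other 7 was a different one.

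**Figure D4:**
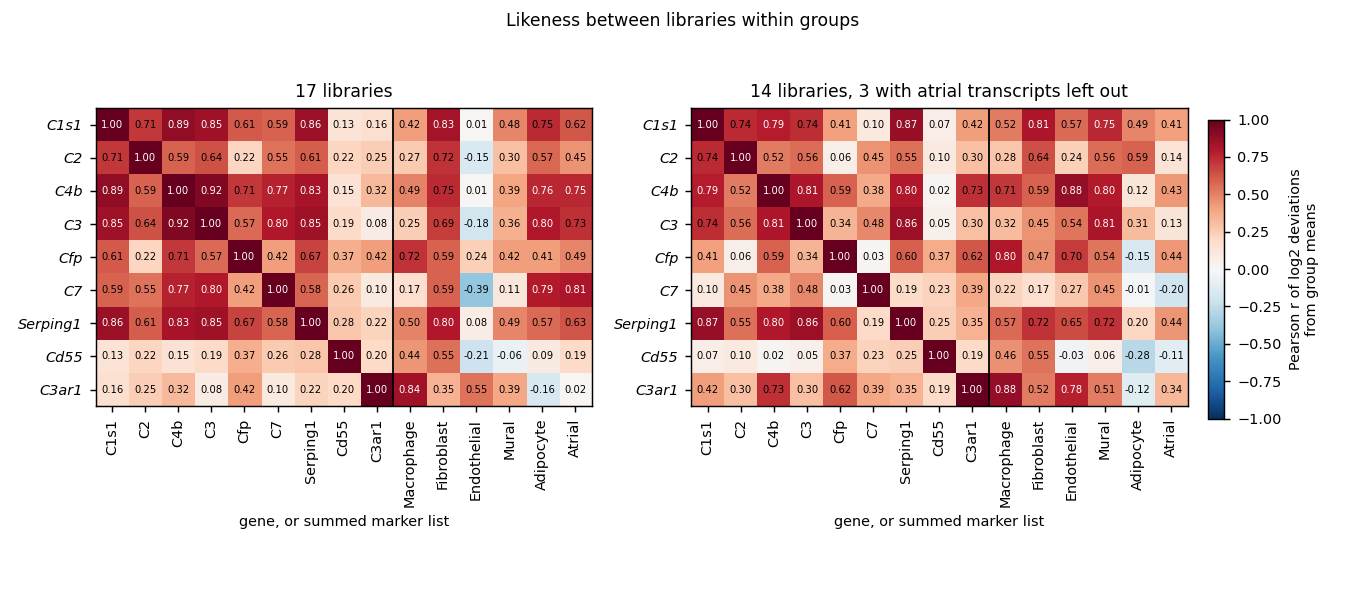
Pearson r between log2 levels of the complement genes, and with summed marker lists to the right of the line, after each group's mean was subtracted. The left panel holds 17 libraries and the right panel the 14 without atrial transcripts; the link of C7 with atrial and adipocyte sums is seen on the left and not on the right, and that of C3ar1 with macrophage markers in both.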

How the data were processed

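Bulk polyA RNA-sequencing of 17 mouse left ventricles was analysed. Per the study's methods, STAR 2.3.7, run within Partek Flow, mapped the reads to mm10, and the authors deposited 1 table of CPM values per gene with 0.0001 added to each. The counting tool and strand setting are not given in the sources used here. Low values were whole multiples of 1 read (tolerance 0.05 reads) in only 79.1 to 81.7% of cases, so counts were not recovered and depth is an estimate. Group differences were contrasts from limma 3.58.1 (R 4.3.3) fitted to the log2 CPM, with 1 mean per group, a trend on the variance, 13 residual degrees of freedom and Benjamini-Hochberg adjustment over the 16218 genes at 0.5 CPM or more in at least 3 libraries. For single genes, every regrouping of the 2 groups' libraries gave an exact two-sided permutation p (scipy 1.17.1). Each library had its own animal number, so p-values measure the spread between animals.

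Levels per kb used the exon union of GENCODE vM21, whose starts matched those of the file for all 9 genes. The 9 genes, the wider list and the marker lists were chosen with earlier results of these data known. All 9 genes are named whatever their values, other complement genes where their adjusted p was 0.05 or less and their mean at least 1 CPM (up to 12 by size in each comparison, which leaves out Cd59a as the 13th in 29P animals), and for each of the 9 the 3 most alike genes. Cfd, C5ar1, C5ar2, Cd59a in 29P animals, the values of genes in the comparison they did not pass and the untested genes were named after their values were seen. The model was tested on simulated data. Alternatives were TMM factors (trimming 30% and 5%), totals without mitochondrial genes, median-of-ratios factors, other filters, constants of 0.1 and 1, a fit of just the compared groups, a covariate for the animal-number run, the unadjusted threshold and each library left out. Leaving out the 3 libraries with atrial transcripts was added after seeing the data.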

Additional observations from a re-analysis of the deposited data

Results flagged for a closer look

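Over the 18 groups of 5 or 6 libraries formed by the 9 genes in Sham Veh and TAC 29P, 1 had a library far from the rest by Dixon's rule, which chance gives in about 5% of groups. It was C4b in TAC 29P, where S18 was at 40.2 CPM and the other 5 animals at 11.2 to 16.6 CPM, a gap of 0.691 of the whole range on the log2 scale. S18 is the TAC 29P library with atrial transcripts, and it also had the highest level of its group for 7 of the 9 genes. The part of atrial tissue in this value was not tested.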

How the results depend on the processing

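At an adjusted p of 0.05, the count of complement genes higher after TAC in Veh animals was 4. It was 0 with TMM factors and 0 with median-of-ratios factors, 2 with TMM factors and without the 3 libraries with atrial transcripts, and 0 to 5 over the fits that left out 1 library each. Over all 16218 genes the calls higher were 3648, and 634, 681 and 472 in those settings, in that order. They ran from 422 to 4760 with 1 library left out. In 29P animals the count of 6 became 1 with TMM factors, 1 with median-of-ratios factors, 2 with a covariate for the animal-number run, 1 with TMM factors and without the libraries with atrial transcripts, and 1 to 6 with 1 library left out. Over all genes the calls higher were 5097, and 977, 930, 679 and 1180 in those settings, in that order. With 1 library left out they ran from 1039 to 6442. Both TMM and median-of-ratios factors take the median shift of all genes out of each value. For 29P in Sham animals 1 gene was lower at the unadjusted threshold and 0 at the adjusted one. The sample labels name no pairs of animals, so no paired analysis was made. The animal-number run, which spans groups, was fitted as a covariate.

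The log2 fold changes below turned sign, and none of them had passed the threshold. After TAC in Veh animals, C3 was −0.0052 with TMM factors, Cfp −0.074 with TMM and −0.067 with median-of-ratios factors, and C7 −0.27, −0.092 and −0.26 with TMM factors, totals without mitochondrial genes and median-of-ratios factors, and −0.24 to 0.37 with 1 library left out. After TAC in 29P animals, C3 was −0.19, −0.033 and −0.21 under the same 3 scalings, −0.10 and −0.43 without the libraries with atrial transcripts (without and with TMM factors) and −0.12 to 0.44 with 1 library left out. C7 was −0.13 with TMM and −0.15 with median-of-ratios factors, −0.079 with the run covariate, −0.023 and −0.36 without the libraries with atrial transcripts and −0.023 to 0.36 with 1 library left out.

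For 29P within TAC, Cfp was −0.19 with the run covariate, −0.068 and −0.033 without the libraries with atrial transcripts and −0.20 to 0.18 with 1 library left out. Cd55 was 0.016, 0.0082 and 0.0057 under the 3 scalings and −0.078 to 0.061 with 1 library left out, C3ar1 −0.30 with the run covariate and −0.22 to 0.52, and C2 −0.92 to 0.025. For 29P within Sham, C2 was 0.0056 and 0.043 without the libraries with atrial transcripts, C3 was 0.24 with the run covariate, 0.23 and 0.27 without those libraries and −0.42 to 0.14 with 1 library left out, and C3ar1 was 0.11 with the run covariate and −0.56 to 0.081.

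The difference between surgery effects (29P minus Veh) was 0.015 for C2 with a constant of 1. With the run covariate it was −0.74 for C4b, −0.78 for C7, −0.26 for Serping1 and −0.41 for C3ar1. Without the libraries with atrial transcripts it was −0.38 and −0.39 for C4b, −0.69 and −0.69 for C7 and −0.26 and −0.27 for Serping1. With 1 library left out it ran from −0.17 to 0.12 for C1s1, −0.54 to 0.46 for C2, −0.10 to 0.64 for C4b, −0.44 to 0.11 for C3, −0.16 to 0.45 for C7, −0.24 to 0.23 for Serping1 and −0.069 to 0.71 for C3ar1. The cause of these turns was not tested. Over the settings other than those that left out 1 library, 408 log2 fold changes of the 9 genes kept their direction and their side of the threshold. In the same settings 30 lost the call, 3 gained it and 40 turned sign.

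With 3 to 6 animals a group, 3 TAC Veh libraries and 3 Sham 29P libraries limited each comparison they entered, and C2 rested on 1.48 to 27.9 reads a library.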
